A study of Mus musculus with 16 samples.

Results

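Aerocytes are the wide capillary endothelial cells of the lung alveolus, and here they were picked out of sorted mouse lung endothelial cells (EC) by their transcripts. A cell was counted as an aerocyte capillary cell when it held at least 1 unique molecular identifier (UMI, a count of 1 captured transcript) of at least 2 of 4 gate genes, Ednrb, Fibin, Tbx2 and Chst1. The gate took 1406 of 9036 cells: 511 of 2671, 146 of 1507, 580 of 3230 and 169 of 1628 at the days called d0, d15, d22 and d36. EC came from the lungs of female C57BL/6N mice, and in the tumour groups cells of the Lewis lung carcinoma line, a transplantable mouse tumour, had been placed under the skin. The d0 cells were from wild-type mice, those of d15 from mice carrying the primary tumour, those of d22 from mice after its resection, and those of d36 from mice with metastases. All mice were of 1 strain with no engineered allele named, and the sorted cells were profiled by droplet RNA sequencing with the 10x Genomics 3′ kit, version 2. The series describes 4 libraries per day from 10000 sorted EC, but the cell names carry only the day, so each day was 1 pooled sample. The spread between libraries or animals was not measured, no test between days was possible, and every 95% interval covers counting error only.

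The alveolar capillary bed of the mouse lung holds 2 kinds of EC. Aerocytes are large, thin cells that lie against the gas exchange surface, and general capillary cells are smaller cells that proliferate and can replace both kinds after injury. Aerocytes carry the membrane-bound carbonic anhydrase Car4 and the endothelin receptor Ednrb, and they make apelin (Apln), a secreted peptide. General capillary cells carry the apelin receptor Aplnr, the lipase anchor Gpihbp1 and Plvap, which forms the diaphragms of caveolae and fenestrae.

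Depth moved with both the gate and the day. Aerocytes held 6664331, 1150248, 7682247 and 1048357 UMIs in all at d0, d15, d22 and d36. The median UMI count per aerocyte was 12733, 6802.5, 13298.5 and 4992, against 7217.5, 3862, 7263 and 3264 in the other cells. Cells with over 20000 UMIs numbered 72, 0, 84 and 1 among aerocytes. Mitochondrial UMIs made up a median of 1.5%, 1.32%, 1.25% and 2.32% of an aerocyte's UMIs. Across days, 36 barcodes occurred more than once, and 7 aerocytes carried such a barcode. UMIs also lay in clumps: genes found in under 5% of all cells of a day had a median of 3.20 to 3.38 UMIs per positive cell, where Poisson counts would give about 1.03, so the intervals are too narrow for such genes.

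The gate genes were first examined one at a time, because each can be read in cells chosen by the other 3. Ednrb encodes the endothelin receptor type B. Among cells with at least 2 of Fibin, Tbx2 and Chst1, it was detected in 81.3%, 72.1%, 84.1% and 66.9% at d0, d15, d22 and d36, against 5.23% to 7.23% of the remaining cells. Fibin encodes a secreted protein and was found in 93.5%, 85.9%, 93.7% and 83.3% of cells chosen by the other 3 genes, against 10.8% to 13.7%. Tbx2, a T-box transcription factor, was found in 63.5%, 52.8%, 66.1% and 42.3%, against 2.97% to 5%. Chst1, a sulphotransferase that acts on keratan sulphate, was found in 69.0%, 52.7%, 69.8% and 42.3%, against 2.03% to 3.50%. Each gene therefore marked the cells that the other 3 picked out, with CPM (counts per 1000000 UMIs of the group) 9.85 to 30.4 times as high as in the rest. Detection was lower at the shallow days, d15 and d36, for all 4 genes. Free RNA can place single UMIs in any cell: 104 cells with lymphatic markers and outside the gate had Ednrb in 3.85%, Fibin in 8.65%, Tbx2 in 3.85% and Chst1 in 2.88%, at a median of 6602 UMIs. Being outside the gate, these cells could hold at most 1 gate gene. Another 17, 1, 14 and 0 cells with lymphatic markers at d0, d15, d22 and d36 passed the gate. The shares outside it are thus held down by the gate and do not measure free RNA. In aerocytes, at a median of 11462 UMIs, the shares of the 4 genes were 83.4%, 93.9%, 64.9% and 67.6%, which the gate itself sets.

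Promoter windows of 3 gate genes and of Car4, an aerocyte marker outside the gate, are shown because these genes were detected in the same cells. Each 300-base window spans the RefSeq gene start, with most of its length before it, on build GRCm38.p6, 5′ to 3′ along the gene, with CG dinucleotides in capitals. The windows are chr14:103843652-103843951 (minus strand) for Ednrb, chr2:110362944-110363243 (minus strand) for Fibin, chr2:92600867-92601166 (plus strand) for Chst1 and chr11:84957504-84957803 (plus strand) for Car4.
Ednrb: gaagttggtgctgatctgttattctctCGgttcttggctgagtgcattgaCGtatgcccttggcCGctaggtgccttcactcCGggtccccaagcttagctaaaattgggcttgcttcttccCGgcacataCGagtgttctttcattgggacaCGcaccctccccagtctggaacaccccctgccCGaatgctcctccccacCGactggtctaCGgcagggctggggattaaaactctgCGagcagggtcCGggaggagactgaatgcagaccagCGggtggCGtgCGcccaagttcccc
Fibin: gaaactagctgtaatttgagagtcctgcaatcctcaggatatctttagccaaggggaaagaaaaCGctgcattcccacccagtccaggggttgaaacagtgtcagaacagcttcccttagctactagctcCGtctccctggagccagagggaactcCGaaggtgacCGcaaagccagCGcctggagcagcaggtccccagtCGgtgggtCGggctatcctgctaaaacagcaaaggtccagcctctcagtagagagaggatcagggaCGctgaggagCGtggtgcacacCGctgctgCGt
Chst1: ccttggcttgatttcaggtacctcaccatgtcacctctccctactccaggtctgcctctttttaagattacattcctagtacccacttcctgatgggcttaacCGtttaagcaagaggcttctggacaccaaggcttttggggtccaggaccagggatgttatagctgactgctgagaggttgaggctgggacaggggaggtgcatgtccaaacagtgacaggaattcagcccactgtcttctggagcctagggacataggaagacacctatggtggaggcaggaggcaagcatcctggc
Car4: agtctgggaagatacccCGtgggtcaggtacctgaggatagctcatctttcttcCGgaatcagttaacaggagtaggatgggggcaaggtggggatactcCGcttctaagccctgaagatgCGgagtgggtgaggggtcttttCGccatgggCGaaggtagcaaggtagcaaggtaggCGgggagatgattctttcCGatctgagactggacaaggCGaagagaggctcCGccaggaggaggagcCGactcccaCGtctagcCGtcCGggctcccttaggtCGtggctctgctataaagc
Ednrb and Car4 each held 15 CG dinucleotides and Fibin held 11, above the median of 7 (quartiles 3 and 20) over 32851 windows of 27025 genes. Chst1 held 1, and only 5.43% of all windows held fewer. The core letters AGGTGT bound by T-box factors, or their reverse complement ACACCT, occurred in the Chst1 window and not in the Ednrb, Fibin or Car4 windows. Of all windows, 13.7% held them. Such a match is a description of the letters and not of a bound site.

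At d0 the gate took 19.1% of cells (Clopper-Pearson 95% interval 17.7 to 20.7), and at d22 18% (16.6 to 19.3). It took 9.69% at d15 (8.24 to 11.3) and 10.4% at d36 (8.94 to 12). The low shares fell on the days of low depth. With each cell thinned to 2500 UMIs, which left out 460 shallower cells at d15 and 604 at d36, the shares were 16.7% (15.3 to 18.2), 11.6% (9.68 to 13.7), 15.9% (14.6 to 17.2) and 11.5% (9.63 to 13.6). Thinned to 1200 UMIs with no cell left out, they were 12.3%, 6.90%, 11.8% and 7.74%. At equal depth d15 and d36 stayed below d0 and d22, by less than in the full counts. Another way of counting, chosen after seeing the data, asked only that at least 1% of a cell's UMIs came from 11 aerocyte markers outside the gate. It gave 19.1% at d0 (17.6 to 20.6) and 18.2% at d22 (16.9 to 19.5). On the shallow days it gave 13.7% at d15 (12 to 15.5) and 16.5% at d36 (14.8 to 18.4). By that count the d36 interval overlapped those of d0 and d22, and the d15 interval did not. The cells counted this way that failed the gate numbered 53, 70, 56 and 115 at d0, d15, d22 and d36 and had median UMI counts of 3575, 2587.5, 4338.5 and 2241. A share of sorted cells depends on the sort and on cell recovery as well as on the lung, and their part was not tested.

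**Figure D1:**
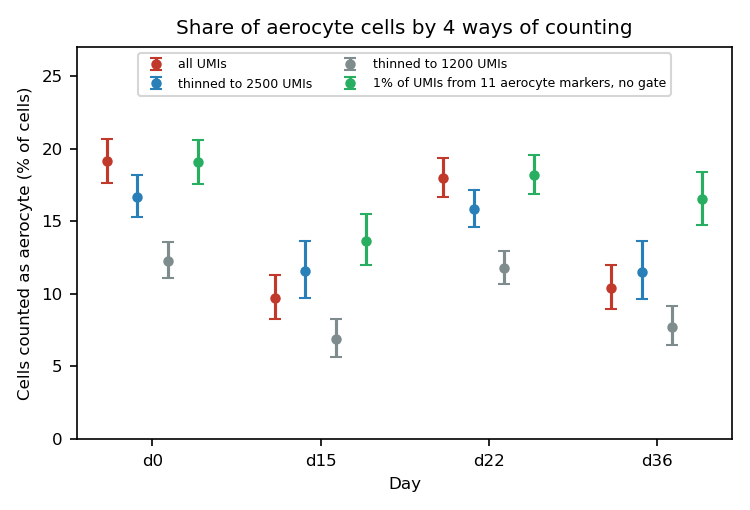
Share of cells counted as aerocytes (y axis, % of cells) at each day, by the gate on all UMIs, by the gate after thinning to 2500 or 1200 UMIs per cell, and by at least 1% of UMIs from 11 aerocyte markers with no gate. Bars are Clopper-Pearson 95% intervals for counting error. The gate gives 9.69% at d15 and 10.4% at d36 against 19.1% at d0, while the marker count gives 13.7% and 16.5%.

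In summed CPM, the number of gate genes separated the cells by markers that the gate did not use. The 11 aerocyte markers outside the gate summed to 2369 to 2694 CPM in cells with no gate gene, to 3395 to 5986 CPM in cells with exactly 1, and to 14613 to 21386 CPM in cells with exactly 2. In cells with all 4 they summed to 26437 to 28417 CPM. The 13 general capillary markers ran the other way, from 13269 to 15015 CPM with no gate gene and 11276 to 13658 CPM with 1, to 4826 to 8275 CPM with 2 and 2512 to 3159 CPM with all 4. Cells just outside the gate, with 1 gene, were thus nearer in sum to cells with none, and cells just inside it lay between these and cells with all 4. Single cells with 1 gene were mixed. At least 1% of UMIs came from the 11 markers in 20.8% of them at d15 and 26.8% at d36, against 7.89% at d0 and 8.33% at d22. The gate also admitted cells with few aerocyte markers. Of 414 cells with exactly 2 gate genes, 110 (26.6%) took under 1% of their UMIs from the 11 markers, against 17 of 441 (3.85%) with 3 genes and 2 of 551 (0.363%) with 4. Over all aerocytes by the gate this was 129 of 1406 (9.17%), and 294 of the 7630 other cells (3.85%) were over 1%. The most common combinations were all 4 genes in 551 cells, Ednrb with Fibin and Chst1 in 210, and Ednrb with Fibin alone in 177.

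**Figure D2:**
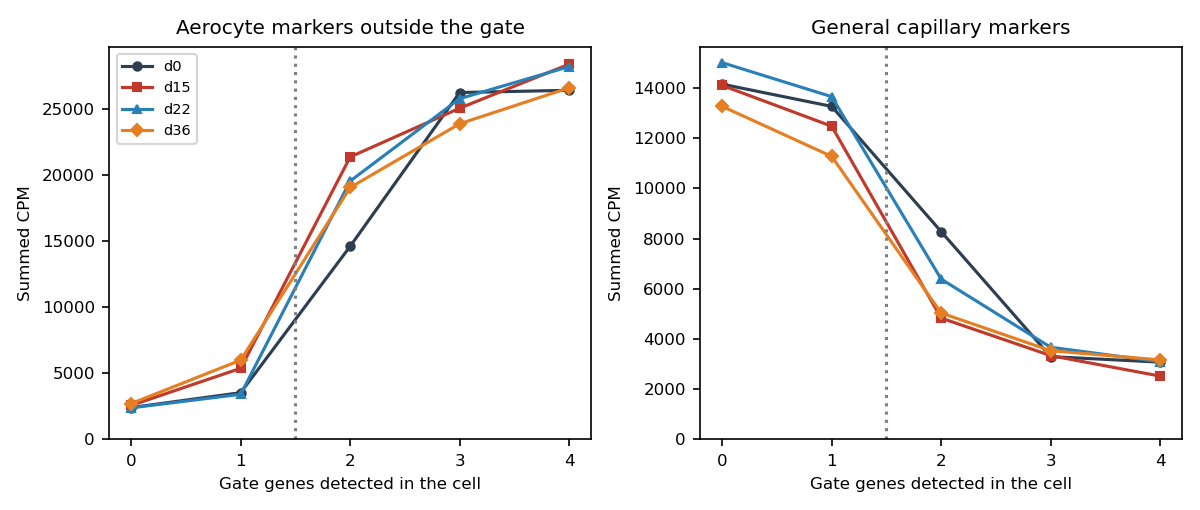
Summed CPM (y axis) of 11 aerocyte markers outside the gate (left) and 13 general capillary markers (right) in cells with 0 to 4 gate genes detected (x axis), with a line for each day. The dotted line marks the gate: from 1 gene to 2 the aerocyte sum goes from at most 5986 CPM to at least 14613 CPM.

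The label held against the markers on every day. Car4 stood at 4958, 5824, 5635 and 4670 CPM in aerocytes at d0, d15, d22 and d36, against 385, 444, 343 and 511 CPM in the other cells, which is 12.9, 13.1, 16.4 and 9.15 times as high. Apln stood at 383, 309.5, 400.4 and 259 CPM against 16.2, 18.9, 12.2 and 19.6 CPM, or 23.7, 16.4, 32.9 and 13.2 times as high. The summed CPM of both genes was higher in aerocytes on every day, while single cells of the 2 groups overlapped: at d15 and d36 the median aerocyte held no Apln UMI, and some other cells had more Car4 than the median aerocyte. All 11 aerocyte markers outside the gate and all 13 general capillary markers went the way of the label, with median log2 ratios per day of 2.58 to 2.98 and of -3.40 to -2.58. List medians were taken over members with at least 10 CPM in either group, and the same median over all genes was -0.06 to -0.05. A gene was counted as higher or lower when it had at least 50 CPM in either group, at least 200 UMIs over both, a ratio of 1.5 or more upward or downward, and an interval that left out 1 (the size rule). By that rule 26.8%, 34.5%, 29.1% and 32.9% of genes measured on each day at d0, d15, d22 and d36 differed in one direction or the other. Among genes measured every day, 259 of 3371 (7.68%) were higher in aerocytes on all 4 days and 308 (9.14%) were lower. Counts of list members that differed every day are to be read beside these shares. Because the gate chose these cells by their transcripts, and deep cells pass it more easily, these ratios describe the cells and test nothing.

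**Figure D3:**
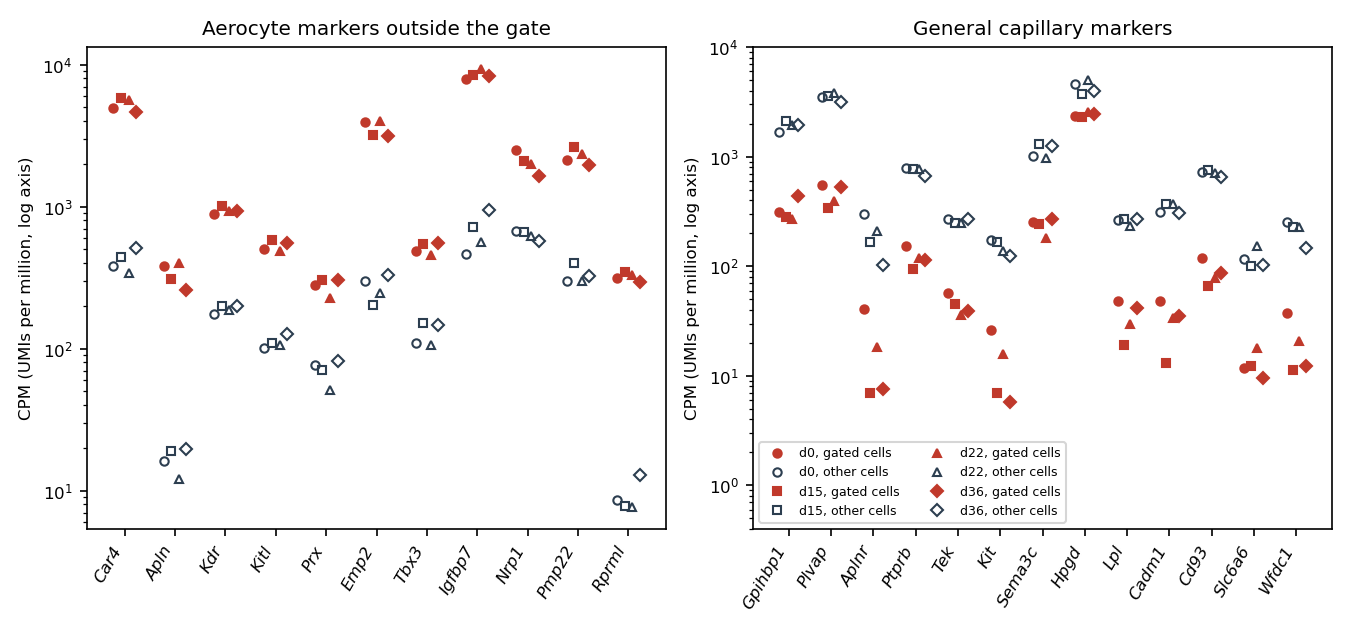
CPM on a log axis of each aerocyte marker outside the gate (left) and each general capillary marker (right), in aerocyte-gated cells (filled red) and other cells (open dark), with a symbol for each day. All 11 aerocyte markers lie higher in gated cells and all 13 general capillary markers lie lower, on all 4 days.

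Ligands and receptors fell on opposite sides of the gate in several signalling pairs. Apelin was in aerocytes, while its receptor Aplnr stood at 40.5, 6.96, 18.5 and 7.63 CPM in them against 297, 166, 209.6 and 103 CPM in the other cells. Kitl, the ligand of the receptor tyrosine kinase Kit, stood at 502, 586, 483 and 553 CPM in aerocytes against 101, 109, 106 and 127 CPM, and Kit itself at 26.1, 6.96, 15.9 and 5.72 CPM against 174, 167, 139 and 123 CPM. For these pairs the ligand was the higher gene in aerocytes and the receptor the lower one, on every day. In the VEGF pathway the receptor was the higher gene in aerocytes. In the endothelin pathway the receptor Ednrb is a gate gene, so the gate sets its side. Read in cells chosen by the other 3 gate genes, Ednrb was 20.4, 15.1, 19.8 and 10.3 times as high as in the rest. Edn1, the ligand of the gate gene Ednrb, stood at 19.7, 21.7, 27.7 and 29.6 CPM in aerocytes and 207, 245, 246 and 258 CPM in the other cells. Kdr, the main VEGF-A receptor, stood at 889.8, 1003, 930.1 and 933 CPM against 176, 199, 188 and 199.6 CPM, and its co-receptor Nrp1 at 2497, 2111, 1999 and 1636 CPM against 675, 661, 626 and 571 CPM. Vegfa stood at 14.9, 2.61, 10.4 and 12.4 CPM against 85.4, 117, 101 and 104 CPM, and Vegfc was lower too, with ratios of 0.0876 to 0.172. Of 5 VEGF receptors, neuropilins and ligands measured every day, Kdr and Nrp1 were higher and Vegfa and Vegfc lower. Flt1, the VEGF receptor that also acts as a decoy, stood at 228 to 257 CPM against 309 to 413 CPM and met the size rule at d15 alone.

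The genes with the highest ratios to the other cells, by the median over the days, included both known aerocyte genes and others. Rprml, a Reprimo family member, stood at 316, 348, 329 and 293 CPM against 8.64, 7.84, 7.66 and 12.9 CPM. Emp2, a tetraspan membrane protein, stood at 3964, 3184, 4018 and 3154 CPM against 301, 203, 246 and 329 CPM, and Igfbp7, a secreted binding protein of insulin-like growth factors, at 7925, 8498, 9328 and 8362 CPM against 468, 723, 565 and 953 CPM. These 3 are among the fixed markers. Outside them, Cdkn2b, a cyclin-dependent kinase inhibitor, stood at 369.7, 270.4, 434 and 227 CPM in aerocytes with ratios of 13.8 to 28.1. Sirpa, the receptor for CD47, had ratios of 14.2 to 34.5, the integrin subunit Itgb5 14 to 32.7, Tmeff2 13.7 to 30.9, Enho 11.8 to 33.8 and Ccdc184 16.4 to 43. Every one of these genes was higher in aerocytes on all 4 days, and the ratio of each was smallest at d36. The other cells differed too: 7.88% of them took at least 1% of UMIs from the 11 aerocyte markers at d36, against 2.45% at d0. Those markers summed to 3277 CPM in the other cells at d36 and 2618 CPM at d0. How far aerocytes missed by the gate lowered the d36 ratios was not tested. Of the 12 highest genes, 9 had a RefSeq promoter window, with a median of 19 CG dinucleotides against 7 over all windows, and 8 of the 12 lowest had 16 windows with a median of 17.5.

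General capillary, arterial and venous genes were low in aerocytes. Plvap stood at 554, 339.9, 396 and 526 CPM against 3497, 3601, 3830 and 3124 CPM and Gpihbp1, which holds lipoprotein lipase on capillary walls, at 313, 279.9, 269 and 434 CPM against 1665, 2132, 1934 and 1927 CPM. Hpgd, the enzyme that inactivates prostaglandins, was the general capillary marker least different, at 2367, 2289, 2557 and 2442 CPM against 4586, 3743, 4982 and 3972 CPM. Among the other members, ratios were 0.088 to 0.166 for Cd93, 0.122 to 0.194 for the phosphatase Ptprb, 0.144 to 0.209 for the angiopoietin receptor Tek and 0.0354 to 0.154 for Cadm1. All 6 arterial markers measured every day were lower, with the transcription factor Sox17 at 98.9, 62.6, 57.9 and 94.4 CPM against 461, 570.1, 519.7 and 551 CPM and the Notch target Hey1 at 19.7 to 56.3 CPM against 232 to 287 CPM. All 4 venous markers measured were lower as well, Vwf (von Willebrand factor) with ratios of 0.0805 to 0.152 and Prss23 with 0.0739 to 0.118. Thinned to 2500 UMIs, 26.4% to 33.2% of aerocytes held at least 3 of the 13 general capillary markers, against 93.2% to 95.4% of the other cells. Their full counts gave 52.1% to 75.9% of aerocytes, so most of them held some UMIs of general capillary genes, and the part of doublets and free RNA in this was not tested.

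Genes that act between EC and leukocytes were split. Of 6 adhesion and chemokine genes measured every day, 4 were higher in aerocytes: Icam1, an adhesion receptor, at 683, 832, 797 and 681 CPM against 259, 334, 259 and 304 CPM, Icam2 with ratios of 2.19 to 2.55, the membrane chemokine Cx3cl1 with 2.34 to 5.27, and the chemokine scavenger Ackr2 with 2.61 to 4.49. The other two were lower: Vcam1 at 8.25, 6.09, 12.8 and 7.63 CPM against 145, 73.3, 103 and 66.9 CPM, and the chemokine Cxcl12 at 20.9 to 63 CPM against 399 to 507 CPM. All 6 measured MHC class II genes, whose products present peptides to helper T cells, were lower on all 4 days, with medians of -3.39 to -1.64 on the log2 scale. H2-Ab1 stood at 96.6, 47.8, 119 and 169.8 CPM in aerocytes against 661, 436, 1228 and 530.2 CPM. Of 13 MHC class I and peptide loading genes only H2-Q4, H2-Q6 and H2-Q7 were lower every day, and near-identical copies make these 3 uncertain. H2-K1 stood at 1590, 1512, 2316 and 1609 CPM against 2355, 2166, 3160 and 2293 CPM and did not meet the size rule. Of 12 interferon-induced genes, 5 were lower every day, among them Ifitm3 with ratios of 0.19 to 0.256.

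Growth and signalling lists differed from the other cells to unlike degrees. Median log2 ratios per day were -1.24 to -0.96 for the endothelin, nitric oxide and natriuretic peptide list. They were -1.26 to -0.89 for the Notch list and -1.18 to -1.08 for the Wnt list. The semaphorin, BMP and STAT3 lists gave -0.46 to 0.14, -0.45 to -0.07 and -0.90 to -0.37. These are to be read beside the median over all genes given above. Of 8 endothelin, nitric oxide and natriuretic peptide genes, Edn1, Npr1, Npr3 and Ptgs1 were lower every day, with ratios of 0.268 to 0.365 for the natriuretic peptide receptor Npr1 and 0.0667 to 0.424 for the prostaglandin synthase Ptgs1. Of 11 semaphorin, plexin and guidance genes, 3 were higher, namely Nrp1, Sema3f with ratios of 1.63 to 2.19 and Sema7a with 3.08 to 3.9, and 5 were lower, among them Sema3c with 0.185 to 0.247 and Sema3g with 0.11 to 0.203. Semaphorins were thus on both sides. Of 5 Wnt pathway genes, Tspan12, a co-activator of norrin signalling through Fzd4, was higher at 548, 715, 526 and 816 CPM against 215, 268, 182 and 300.1 CPM, as was the feedback inhibitor Nkd1 with ratios of 2.16 to 2.54, while the receptor Fzd4 was lower with 0.302 to 0.502. Of 6 Notch pathway genes, Notch4, Hey1 and Nrarp were lower and none was higher. Of 9 BMP and TGF-beta genes, Id2 was lower and no gene was higher. That is near the shares over all genes measured every day, 9.14% lower and 7.68% higher. In the STAT3 list, Lrg1, a leucine-rich secreted glycoprotein, stood at 40.1, 61.7, 47.1 and 96.3 CPM against 172, 318, 124 and 228 CPM. Socs3, a feedback inhibitor of STAT3 signalling, had ratios of 0.336 to 0.431.

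Structural and metabolic lists varied in how many members were higher or lower in aerocytes. Over all genes measured every day, 7.68% were higher and 9.14% lower. Of 8 carbonic anhydrase and ion transport genes, Car4 and the chloride channel protein Clic5 (1.53 to 1.88) were higher, and Car2 (0.424 to 0.613) and Car14 (0.0945 to 0.17) were among those lower. Car4 and Car14 are both membrane-bound carbonic anhydrases, so these cells carried one and were low in the other. Of 7 basement membrane and matrix genes, 5 were lower, among them elastin (Eln) with 0.0919 to 0.153 and Sparcl1 with 0.101 to 0.216, and none was higher. Of 5 integrin subunits, Itga3 (2.73 to 4.31) and Itgb5 were higher, and Itga1 and Itga6 lower. Of 9 caveola and fatty acid genes, Lpl, Gpihbp1, Fabp4 and Ptrf were lower. Of 10 junction genes, Jam2 and Ctnnb1 were lower and the other 8 did not meet the rule on all 4 days, with Cdh5 (VE-cadherin) at 1258, 1134, 1074 and 1314 CPM against 1018, 1089, 879 and 957 CPM. Of 11 mitochondrially encoded respiratory chain genes, 7 were lower at d15, where 18.1% of all genes were lower, 1 was lower at d0, where 14.3% were, and none at d22 or d36. All 12 or 13 members with at least 10 CPM stood below the other cells on each day, with list medians of -0.64 to -0.38 on the log2 scale. Of 4 glycocalyx genes, the sialomucin Cd34 was higher, at 1422, 1253, 1563 and 956 CPM against 309, 276, 280 and 281 CPM.

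Transcription factors other than Tbx2 also marked the cells. Of 22 measured every day, Tbx3, Meox1, Hlx, Hopx, Klf7 and Meis1 were higher, and Sox7, Sox17, Foxo1, Meis2 and Zeb2 were lower. Tbx3, the T-box paralog next of kin to Tbx2, stood at 489, 548, 457 and 552 CPM in aerocytes against 110.3, 151, 106 and 148 CPM. The homeobox gene Meox1 stood at 239.9, 247, 260.3 and 189 CPM against 17.8, 23.7, 17.9 and 19.6 CPM, and the homeobox gene Hlx at 261, 348, 275 and 327 CPM against 87.6, 127, 84.7 and 142 CPM. Tbx3, Meox1 and Hlx were over 2 times as high as in the other cells on each day. Hopx, which alveolar type I epithelium also expresses, stood at 100.2, 113, 89.3 and 99.2 CPM against 26.1, 27.6, 26 and 30.5 CPM.

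Markers of other blood and stromal cell types were near 0 in aerocytes on most days. Pan-leukocyte markers summed to 0, 0.869, 0 and 47.7 CPM at d0, d15, d22 and d36, B cell markers to 1.20, 0, 0.130 and 47.7 CPM, and erythroid and platelet markers to 14.9, 84.3, 23.3 and 351 CPM. Ptprc, which defines leukocytes, was at 0 at d0, d15 and d22, where a count of 0 allows up to 0.45, 2.61 and 0.391 CPM (3 counts). Fibroblast markers summed to at most 11.4 CPM, mural markers to at most 10.1 CPM and mesothelial markers to 0 CPM. Alveolar type II markers summed to 50.7, 24.3, 79.0 and 111 CPM, mostly Sftpc, which stood at 43.1, 18.3, 66.3 and 88.7 CPM in aerocytes and 60.4, 269, 306 and 1350 CPM in the other cells. Sftpc is made by epithelium, and at d36 it was the highest on both sides of the gate. Proliferation genes summed to 35.1, 33, 52.1 and 22.9 CPM in aerocytes, against 197, 44.2, 111 and 109 CPM in the other cells. A few single cells carried much of the foreign signal. At d36, 1 gated cell with 2 gate genes held 50 UMIs of B cell markers, 37 of pan-leukocyte markers and 6 of aerocyte markers, and another with 2 gate genes held 335 UMIs of erythroid and platelet markers and 4 of aerocyte markers. At d0, 1 gated cell held 938 UMIs of lymphatic markers.

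Between days, each later day was set against d0, so the 3 comparisons share the d0 cells, and d36 was set against d15, the day nearest to it in depth. At d15, 319 of 3740 genes were higher in aerocytes than at d0 (8.53%) and 241 lower (6.44%). At d22 these were 15 of 3505 (0.428%) and 97 (2.77%), and at d36 they were 296 of 3677 (8.05%) and 310 (8.43%). From d15 to d36, 88 of 2069 genes were higher (4.25%) and 99 lower (4.78%). In the other cells 178 of 3709 genes were higher (4.8%) and 88 lower (2.37%) at d15, and 16 of 3563 (0.449%) and 58 (1.63%) at d22. At d36 they were 170 of 3664 (4.64%) and 127 (3.47%), and from d15 to d36 they were 36 of 3654 (0.985%) and 79 (2.16%). The many calls at d15 and d36 went with shallow cells and, in aerocytes, with few cells. These were also the days of the primary tumour and of metastases. For these counts, depth and tumour stage cannot be told apart. Among the genes higher at d15 and d36 were ribosomal protein pseudogenes and predicted genes, for which reads can be shared with near-identical copies. Each call was repeated in cells with at least 3 gate genes, in thinned cells and without the cell holding most UMIs. It was also repeated on the share of thinned cells with a UMI. A gene held when each alternative gave a 1.5-fold change in the same direction and an interval that left out 1. One that did not hold could still keep its direction. Counts were much smaller for genes that held: 49 of the 319 and 79 of the 241 at d15. At d22 they were 4 of the 15 and 41 of the 97, and at d36 28 of the 296 and 107 of the 310. From d15 to d36 they were 3 of the 88 and 26 of the 99.

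The aerocyte markers themselves moved little between days. None of the 11 outside the gate met the size rule at d15 or d22, and at d36 only Nrp1 did. Nrp1 stood at 2497, 2111, 1999 and 1636 CPM at d0, d15, d22 and d36, a ratio to d0 of 0.655 (95% interval 0.623 to 0.689) at d36, and the other cells gave 0.846. Apln in aerocytes was 0.809, 1.05 and 0.676 times its d0 level at d15, d22 and d36, and none of these met the rule. Summed over all cells, Apln was 0.553 times its d0 level at d15 and 0.465 at d36, the days on which fewer cells passed the gate. In such a sum, fewer cells of a type and less RNA per cell cannot be told apart. Cdkn2b was lower at d36, with a ratio of 0.614 (95% interval 0.535 to 0.702) and of 1.0 in the other cells. The plot of levels by day shows these genes beside those that changed more.

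Cyp1a1, the cytochrome P450 that the aryl hydrocarbon receptor induces, had the lowest ratio to d0 of all genes that met the size rule, at each later day. It stood at 2169, 68.7, 78.6 and 77.3 CPM in aerocytes at d0, d15, d22 and d36 and at 804, 27.6, 48.3 and 45.1 CPM in the other cells. The ratio to d0 in aerocytes was 0.0317 (95% interval 0.0251 to 0.0395) at d15, 0.0363 (95% interval 0.0334 to 0.0393) at d22 and 0.0356 (95% interval 0.0283 to 0.0443) at d36. It was detected in 238 of 511 aerocytes at d0, 10 of 146 at d15, 70 of 580 at d22 and 9 of 169 at d36. The wild-type day thus stood apart from all 3 later days, and the other cells gave ratios of 0.0344, 0.0601 and 0.0561. In cells thinned to 2500 UMIs, the share with Cyp1a1 was 33.2, 4.13, 7.81 and 5.08% in aerocytes and 30.6, 2.16, 4.6 and 3.2% in the other cells.

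**Figure D4:**
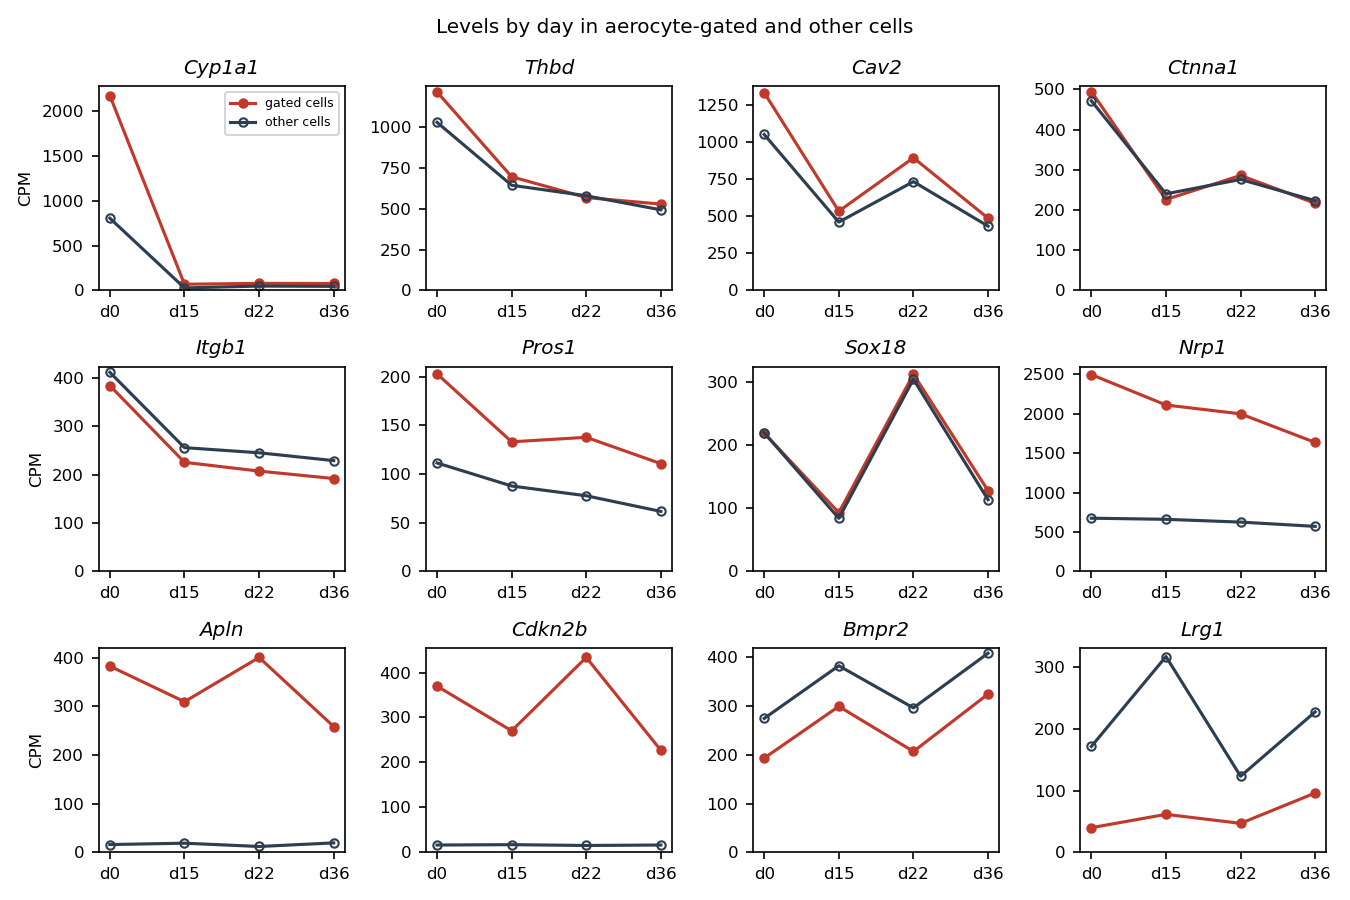
CPM (y axis, from 0) at each day (x axis) of 12 genes in aerocyte-gated cells (filled red) and other cells (open dark). In aerocytes, Cyp1a1, Thbd, Ctnna1 and Itgb1 are highest at d0, Bmpr2 and Lrg1 are highest at d36, and Cav2 and Sox18 are lowest at the shallow days d15 and d36.

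Thbd, Ctnna1, Itgb1 and Npr1 were lower than at d0 on all 3 later days. Thbd (thrombomodulin, the anticoagulant receptor for thrombin) stood at 1213, 695, 568 and 528 CPM in aerocytes at d0, d15, d22 and d36, with ratios to d0 of 0.573, 0.468 and 0.435. Ctnna1, which joins cadherins to actin, stood at 494, 226, 286 and 217 CPM, with ratios of 0.457, 0.578 and 0.438. Itgb1, the common beta subunit of many integrins, stood at 384, 225, 207 and 192 CPM, with ratios of 0.587, 0.54 and 0.50. All these ratios met the size rule, and each gene was highest at d0. The other cells gave ratios of 0.626 to 0.479 for Thbd at d15 and d36, 0.509 to 0.473 for Ctnna1 and 0.622 to 0.557 for Itgb1, so they were lower on both sides of the gate. Npr1 was lower as well, with ratios of 0.429, 0.52 and 0.389 from 58.8 CPM at d0. Under every alternative listed with the counts between days, Itgb1 held on all 3 later days. Ctnna1 held at d15 and d36, Npr1 held at d22 alone, and Thbd did not hold on any day. Counted by list, 3 of 6 measured coagulation genes were lower at d15 (Thbd, Pros1 and Tfpi) and 2 of 5 at d36 (Thbd and Pros1). Of 4 measured integrins, 2 were lower at d15 and 2 at d22. Of 10 measured junction genes, 2 were lower at d15, 1 at d22 and 1 at d36, where 1 was higher. The shares over all genes were 6.44% lower at d15, 2.77% at d22 and 8.43% at d36, where 8.05% were higher. The junction counts at d36 were near these shares.

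Other genes met the size rule below d0 at the shallow days and missed it at d22. Cav2, a caveola coat protein, stood at 1334, 535, 895 and 487 CPM at d0, d15, d22 and d36, with ratios of 0.401 at d15 and 0.366 at d36, and 0.671 at d22 did not meet the rule. Sox18, a SoxF transcription factor, stood at 219, 93, 312 and 128 CPM, with ratios of 0.425 and 0.584, while d22 was 1.43 times d0 and did not meet the rule. Pros1, the anticoagulant protein S, stood at 203, 133, 138 and 111 CPM, with ratios of 0.656 and 0.546, and 0.679 at d22, close to d15, did not meet the rule. Each of the 3 was lower at d15 and d36 than at d0 in thinned cells also: Cav2 was detected in 89.2, 57.9, 82.8 and 46.6% of thinned aerocytes, Sox18 in 37, 15.7, 45.7 and 22% and Pros1 in 30.9, 18.2, 23.6 and 12.7%. Sox17 did not follow them. In aerocytes it stood at 98.9, 62.6, 57.9 and 94.4 CPM, with ratios of 0.633 (95% interval 0.489 to 0.808) at d15 and 0.586 (95% interval 0.518 to 0.662) at d22, while the other cells gave 1.24 and 1.13. The d15 value rests on 19 cells with a UMI.

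Genes higher at d15 and d36 included receptors and signalling regulators, where 8.53% of all genes were higher at d15 and 8.05% at d36. Of the increases named here, only that of Lrg1 at d36 also held under every alternative listed with the counts between days. Bmpr2, the type 2 receptor for BMPs, stood at 193, 299, 207 and 324 CPM in aerocytes at d0, d15, d22 and d36 and at 274, 382, 296 and 408 CPM in the other cells, with ratios to d0 in aerocytes of 1.55 (95% interval 1.37 to 1.75) at d15 and 1.68 (95% interval 1.49 to 1.89) at d36. At d22 Bmpr2 was near its d0 level, with a ratio of 1.07. In cells thinned to 2500 UMIs, the share of aerocytes with Bmpr2 was 28, 36.4, 33.6 and 31.4%, so the share differed less between days than the CPM. Smad6, an inhibitor of BMP signalling, stood at 288, 552, 349 and 341 CPM, higher at d15 alone with a ratio of 1.92, and lower again from d15 to d36 at 0.617. Lrg1 stood at 40.1, 61.7, 47.1 and 96.3 CPM, 1.54 (95% interval 1.17 to 2.01) times d0 at d15 and 2.41 (95% interval 1.89 to 3.03) times at d36, against 1.85 and 1.33 in the other cells. Of 7 STAT3 and acute phase genes measured at d15, Lrg1, Bcl3 and Pim1 were higher, with Bcl3 at 2.62 and Pim1 at 1.56, and the list's median log2 ratio was 0.53, against 0.02 over all genes. Of 4 Notch pathway genes, Notch1, Hes1 and Nrarp were higher at d15, with ratios of 1.54, 1.59 and 2.05 and a list median of 0.36. At d36 the glucocorticoid-induced gene Tsc22d3 had a ratio of 1.97, the phosphatase Dusp1 1.66 and the heat shock gene Hspa1a 2.08, and these 3 were 1.77, 1.57 and 2.25 in the other cells.

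Immune genes of aerocytes varied with the day and, at d36, with 1 cell. For all genes, the share lower was 6.44% at d15, and the share higher was 0.428% at d22 and 8.05% at d36. At d15, 3 of 3 measured MHC class II genes were lower than at d0, with Cd74, the invariant chain, at 175, 18.3, 265 and 371 CPM at d0, d15, d22 and d36 and a ratio of 0.104 at d15. Of 10 interferon-induced genes, 4 were lower at d15, among them Isg15, Gbp2 and Irgm1, with Irgm1 at 0.661 and a list median log2 ratio of -0.40. The other cells gave 0.285 for Cd74 and 0.599 for Irgm1. At d22, Cd74 was 1.51 times d0 in aerocytes and 2.34 times in the other cells, and none of 13 MHC class I genes met the rule although their median log2 ratio was 0.40, against -0.01 over all genes. At d36, 3 of 4 class II genes met the rule above d0, Cd74 with a ratio of 2.12, H2-Ab1 with 1.76 and H2-Eb1 with 1.6. Of the 389 Cd74 UMIs at d36, however, 303 lay in the gated cell with B cell markers, and without the cell holding most UMIs of the gene in each day the ratios were 0.514 for Cd74, 1.22 for H2-Ab1 and 0.871 for H2-Eb1. Among gated cells with at least 1% of UMIs from aerocyte markers Cd74 was at 0.449, so its d36 direction rests on that cell.

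By the fixed naming rule, the genes with the highest and lowest ratios also included several that few cells or near copies decide. At d15 the highest were Ly6c2 (3.88), Mapk8 (3.4), Cdkn2a (3.23), Rnaset2b (3.15), Rnaset2a (3.12) and Fam120a (3.09). Ly6c2 has the close paralog Ly6c1, and Rnaset2a and Rnaset2b are near-identical, so their counts are uncertain. Cdkn2a, a locus of cell cycle inhibitors, held 123 UMIs at d15 of which 1 cell held 26%, and without the top cell its ratio was 2.52. Ccl21a, a lymphatic chemokine, had ratios of 0.0963, 0.234 and 0.0808 to d0, where 905 of its 1023 UMIs lay in the gated cell with lymphatic markers, and without the top cell they were 0.589, 1.35 and 0.269. Mgp, an inhibitor of calcification found in arterial EC and fibroblasts, was 0.263 at d15 and 1.6 at d22. Of its 650 UMIs at d22, 439 lay in 1 cell with 32 UMIs of fibroblast markers, which also held 726 of the 801 Gsn UMIs, and without the top cell Mgp was 0.836. Gsn was 0.0611 at d15, and at d0 1 cell held 299 of its 569 UMIs. At d36, Rgs10 (4.8) and Ptpn18 (3.84) were highest through the cell with erythroid and platelet markers, which held 73 of 114 and 77 of 108 of their UMIs, and without the top cell they were 1.82 and 1.17. For Ccl21a, Rgs10 and Ptpn18, and for Mgp at d22, the ratios thus rest on single cells. Mapk8, a stress-activated kinase, was 3.28 without its top cell.

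The smaller set of genes that differed at d22, at a depth like that of d0, was mostly lower. The lowest besides Cyp1a1 and Ccl21a were Pald1 (0.347), the nuclear envelope protein Sun1 (0.426), the transcription factor Stat6 (0.434) and the DNA damage binding protein Ddb1 (0.437). Of these, Pald1, Sun1, Stat6 and Ddb1 were below d0 at d36 also, with ratios of 0.397, 0.149, 0.216 and 0.484. The heat shock gene Hspa1a was 0.448 (95% interval 0.374 to 0.535) at d22, opposite to d36, and Fosb, an early response gene, was 0.62 while the other cells gave 1.02. The highest at d22 were Sssca1 (1.81), the interferon-inducible GTPase Iigp1 (1.75), Gpx7 (1.68), Snx15 (1.65), Cd247 (1.61) and Orc6 (1.61). Among these highest genes, only Orc6 held under every alternative listed with the counts between days. Pald1, Sun1, Stat6, Ddb1, Hspa1a and Fosb, all lower at d22, held as well. None of the 11 aerocyte markers was among the genes that differed at d22.

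From d15 to d36, 4 of 11 mitochondrially encoded respiratory chain genes were higher in aerocytes, mt-Nd3 (1.86), mt-Co3 (1.73), mt-Nd4 (1.62) and mt-Co1 (1.61). Over all genes 4.25% were higher. The median mitochondrial share per aerocyte was 1.32% at d15 and 2.32% at d36, and the part of RNA quality was not tested. Gpx1, a glutathione peroxidase, was 2.1 times as high, the histone gene Hist1h2bc 2.18 and the peptide transporter gene Tap1 2.4. None of the increases named here held under every alternative listed with the counts between days. Tsc22d1 was 2.12 times as high, with 520 of its 885 d36 UMIs in the cell with erythroid and platelet markers, and without the top cell it was 0.914. The lowest were Smarcd2 (0.309), Bzw1 (0.374), Slco3a1 (0.389), Rab12 (0.428), Clpp (0.456) and Ube2j2 (0.476), and all but Ube2j2 held under those alternatives. Cx3cl1 was lower, at 0.549, against 1.23 in the other cells, and did not hold under every one of those alternatives.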

How the data were processed

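The deposited table holds UMI counts per gene and cell, not scaled. Cell Ranger 2.1.1 and the build mm10 are named by the submitters' processing notes. Which annotation and cell filter were used is not given in the sources used here. The table had 28692 gene symbols, of which 10850 had no UMI. No cell was left out of the reported values and no doublet caller was run, so doublets may remain.

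UMIs were summed over gated and over other cells of each day and divided by the group's total to give counts per 1000000 UMIs (CPM). Ratios carry exact binomial 95% intervals and shares Clopper-Pearson 95% intervals. Gate genes were left out of counts over all genes. The median of a list was taken over members with at least 10 CPM in either group, as log2 ratios with 1 CPM added. Thinning drew UMIs without replacement with a fixed seed. There were 46 gene and marker lists; 6 symbols were renamed by synonyms and 1 had no match. The named genes were the 12 highest and 12 lowest against other cells, the 6 highest and 6 lowest of each day contrast, the 2 largest members of each list (1 in each day contrast), all markers, and Lrg1, Cd74 and Cyp1a1; predicted, mitochondrial, ribosomal protein and immunoglobulin genes and pseudogenes stayed out of the highest and lowest, and other genes were added where a count needed its members. Some genes that the rule or a list count takes in are not reported here. The aerocyte members, lists, rules and alternatives were chosen with earlier results of these data known. The computation was tested on simulated data. Alternatives were filtered cells, a gate of 3 genes, thinned cells, other comparison cells, TMM scaling (edgeR 4.0.16 under R 4.3.3), no filter on low counts and 5 settings added after seeing the data. Promoter windows came from RefSeq on GRCm38.p6. Tools were Python 3.11.15, numpy 2.4.6, scipy 1.17.1, pandas 2.3.3 and matplotlib 3.10.9.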

Additional observations from a re-analysis of the deposited data

Results flagged for a closer look

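For 2 genes, aerocytes and other cells met the size rule in opposite directions between d0 and d36. The difference was not tested, since each day was 1 pooled sample. Deb1 was at 0.582 times its d0 level in aerocytes and at 1.73 times in the other cells, a ratio of ratios of 0.3365, with the gene found in 8 of 169 aerocytes at d36. Cd74, the MHC class II invariant chain, was at 2.12 times in aerocytes and 0.460 times in the other cells, a ratio of ratios of 4.594. One gated cell with B cell markers held 303 of the 389 Cd74 UMIs of aerocytes at d36, and without the cell with most Cd74 UMIs in each day the ratio in aerocytes was 0.514.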

How the results depend on the processing

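No paired analysis was possible because the cell names carry the day and no library number, and for the same reason leaving out 1 library was not possible. Filtered cells kept all 20 shares and counts within their limits, and TMM scaling all 16 counts. General capillary cells as the comparison, and other cells with no gate gene, were run for the 8 counts against other cells and kept these. Depth limits most of what follows, since cells of d15 and d36 were shallow and few.

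The share of aerocytes at d0, d15, d22 and d36 was 14.15%, 5.839%, 13.59% and 5.344% with at least 3 gate genes, and 12.28%, 6.901%, 11.76% and 7.74% in cells thinned to 1200 UMIs. Thinned to 2500 UMIs it was 16.7% at d0, 11.56% at d15 and 15.85% at d22. By 1% of UMIs from aerocyte markers it was 13.67% at d15 and 16.52% at d36.

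Genes past the size rule against other cells numbered 1021, 1363, 1096 and 1248 at the 4 days. With no filter on low counts they were 5066, 4306, 5181 and 4146, in thinned cells 782 at d15 and 740 at d36, and by the share of thinned cells with a UMI 2188 at d0 and 2347 at d22. Genes higher every day were 120 in thinned cells and 481 with no filter, and those lower every day 829 with no filter and 150 by the share of cells.

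Between days, the count with no filter was 1522 higher and 1381 lower at d15, 843 and 1282 at d22, 1583 and 1438 at d36, and 1281 and 1332 from d15 to d36. In thinned cells it was 59 higher and 70 lower at d15, 46 lower at d22, 65 and 95 at d36, and 15 and 11 from d15 to d36. By the share of cells it was 99 higher at d15, 118 and 194 at d22, 55 and 519 at d36, and 35 higher from d15 to d36. Without the cell with most UMIs of each gene, 205 were higher at d15 and 188 at d36. With 3 gate genes, 23 were higher at d22 and 59 lower from d15 to d36.

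Of 4632 gene values under alternatives, 34 reversed, and the cause was not tested except where 1 cell is named in the report. Against other cells, Cyp1a1 at d15 was 0.6275 with 3 gate genes. By the share of cells, Fosb and Hilpda at d15 were 1.024 and 1.099, and Lrg1 and Sftpc at d36 1.088 and 1.016. Against d0, Ccl21a with 3 gate genes was 1.056 at d15 and 2.294 at d22. Thinned, it was 1.98 at d22 and 1.031 at d36. At d22 it was 1.353 without the top cell, 1.375 by the share of cells and 2.114 in cells over 1% of markers. Mgp was 1.152 at d15 by the share of cells, and at d22 0.3081 thinned, 0.8358 without the top cell and 0.8711 by the share. Cd74 at d36 was 0.3495 with 3 gate genes, 0.3687 thinned, 0.5143 without the top cell, 0.49 by the share and 0.4493 in cells over 1% of markers. Ptpn18 at d36 was 0.296 with 3 gate genes, 0.6299 thinned and 0.4447 by the share, by which Efnb2 was 0.8819 and Tap1 0.9659. From d15 to d36, Tsc22d1 was 0.8855 in filtered cells, 0.9262 with 3 gate genes, 0.9679 thinned, 0.9143 without the top cell, 0.8819 by the share and 0.8504 in cells over 1% of markers. Gpihbp1 and H2-Ab1 were 0.9715 and 0.8972 by the share.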
